A study of Mus musculus with 8 samples.

Results

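The 9 genes described here code for the receptor chains of the interleukin-6 (IL-6) cytokine family, 1 of its ligands, the transcription factor STAT3 and 2 genes that STAT3 switches on. They were taken by symbol from a table of 25239 genes: Lif, Il6ra, Il6st, Osmr, Lifr, Il11ra1, Stat3, Socs3 and Pim1. All 9 were in the table and all 9 passed the filter on low counts, which left 15000 genes for testing. The list was drawn up with earlier results from these libraries known, so the number of its genes that changed is not independent evidence about the pathway.

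Cytokines of this family signal through a shared receptor chain, gp130, which Il6st encodes. Each ligand first needs a partner chain: IL-6 uses the product of Il6ra, IL-11 that of Il11ra1, leukemia inhibitory factor (LIF) that of Lifr and, in the mouse, oncostatin M mainly that of Osmr. Janus kinases bound to the receptors then phosphorylate STAT3, which enters the nucleus and switches on target genes. One target, Socs3, codes for an inhibitor that binds gp130 and the kinases and ends the signal; another, Pim1, codes for a kinase of cell survival. Activation of STAT3 is a known response of the injured kidney. RNA levels do not measure phosphorylated STAT3 protein.

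The study asked how myeloid FoxO1, a transcription factor, shapes the kidney subjected to ischemia-reperfusion (I/R), an injury made by clamping the renal vessels and then letting blood back in. Kidney RNA was sequenced from 4 libraries labelled myeloid-specific FoxO1-knockout, which carry Lyz2-CreERT2 and FoxO1flox/flox alleles, and from 4 I/R control libraries with the genotype label WT. Lyz2 drives a tamoxifen-dependent Cre in myeloid cells. Per the labels' protocols, mice aged 8 to 10 weeks received tamoxifen at 75 mg per kg on 5 days, which is listed for all 8 samples; the right kidney was removed and the left renal vessels were clamped for 35 minutes. A reflow time of 5 minutes is also listed for all 8 samples. Whether the controls carried Cre, and when kidneys were collected after reperfusion, is not given in the sources used here. No uninjured kidney was analysed here. The labels do not tie libraries to separate animals, so p-values measure only the spread between these libraries, which may be technical.

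Library totals ran from 29044405 to 34738914 counts in knockouts and from 32627652 to 35530421 counts in controls. Foxo1 stood at 39.3 to 42.9 CPM (counts scaled to library size) in knockouts and at 33 to 34.5 CPM in controls; whole tissue holds many cells that keep FoxO1, so this does not check the deletion in myeloid cells. Lyz2 was at 13 counts in knockout 3 and 81 counts in control 1, against 844 to 1610 counts in the other 6 libraries, so the fold changes and call counts below were also computed without these libraries. All 9 defining kidney markers, from Lrp2 to Nphs1, were detected. In bulk tissue, fewer cells of a type and less RNA per cell cannot be told apart.

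Socs3 carries the feedback arm of the pathway, and its promoter is printed because it was the single member promoter with a match to a STAT motif. The motif searched was TTCNNNGAA, which reads the same on both strands, in the 250 bases before each transcription start in RefSeq (build GRCm38.p6; all 9 genes matched, with 12 start sites). It was found before 1 of the 9 genes, against 8.13% of 27025 genes with such windows. The match to this motif lay 154 to 146 bases before the start. The second sequence is one of 2 RefSeq start sites of Pim1 and held the only match among the members to GTAAACA, a core motif of FoxO factors searched on both strands (3.54% of genes). Capitals mark the matches, which describe the letters and are not evidence of binding. The windows are chr11:117969367-117969616 on the minus strand and chr17:29492835-29493084 on the plus strand.
Socs3: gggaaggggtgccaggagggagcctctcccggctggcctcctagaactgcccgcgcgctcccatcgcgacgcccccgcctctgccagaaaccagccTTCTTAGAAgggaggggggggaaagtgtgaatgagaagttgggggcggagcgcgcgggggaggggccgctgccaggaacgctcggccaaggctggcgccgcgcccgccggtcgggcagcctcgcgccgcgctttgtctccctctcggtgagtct
Pim1: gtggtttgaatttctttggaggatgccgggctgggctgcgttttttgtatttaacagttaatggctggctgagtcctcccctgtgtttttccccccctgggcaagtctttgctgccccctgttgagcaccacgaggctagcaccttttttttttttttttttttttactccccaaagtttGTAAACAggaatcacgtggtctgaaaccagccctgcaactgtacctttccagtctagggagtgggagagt

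Of the 9 genes, 4 were lower in knockout kidneys and 0 were higher at an adjusted p under 0.05 in edgeR's quasi-likelihood test (at an unadjusted p under 0.05, 5 lower and 0 higher; 0 higher in DESeq2 and in limma voom). The 4 were the ligand gene Lif, the oncostatin M receptor gene Osmr, Stat3 and its feedback inhibitor Socs3. Across all 15000 genes tested, 6.28% were called lower and 6.45% higher. At an unadjusted p under 0.05 in edgeR, 4368 of the 15000 differed in either direction, which is the background for such counts here and below. The median log2 fold change, knockout over control, was -0.67 over the 9 genes and -0.01 over all genes tested. Groups did not overlap for 5 of the 9, the 4 called genes and Pim1, all lower in knockouts, against 10.6% of all genes with that pattern.

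**Figure D1:**
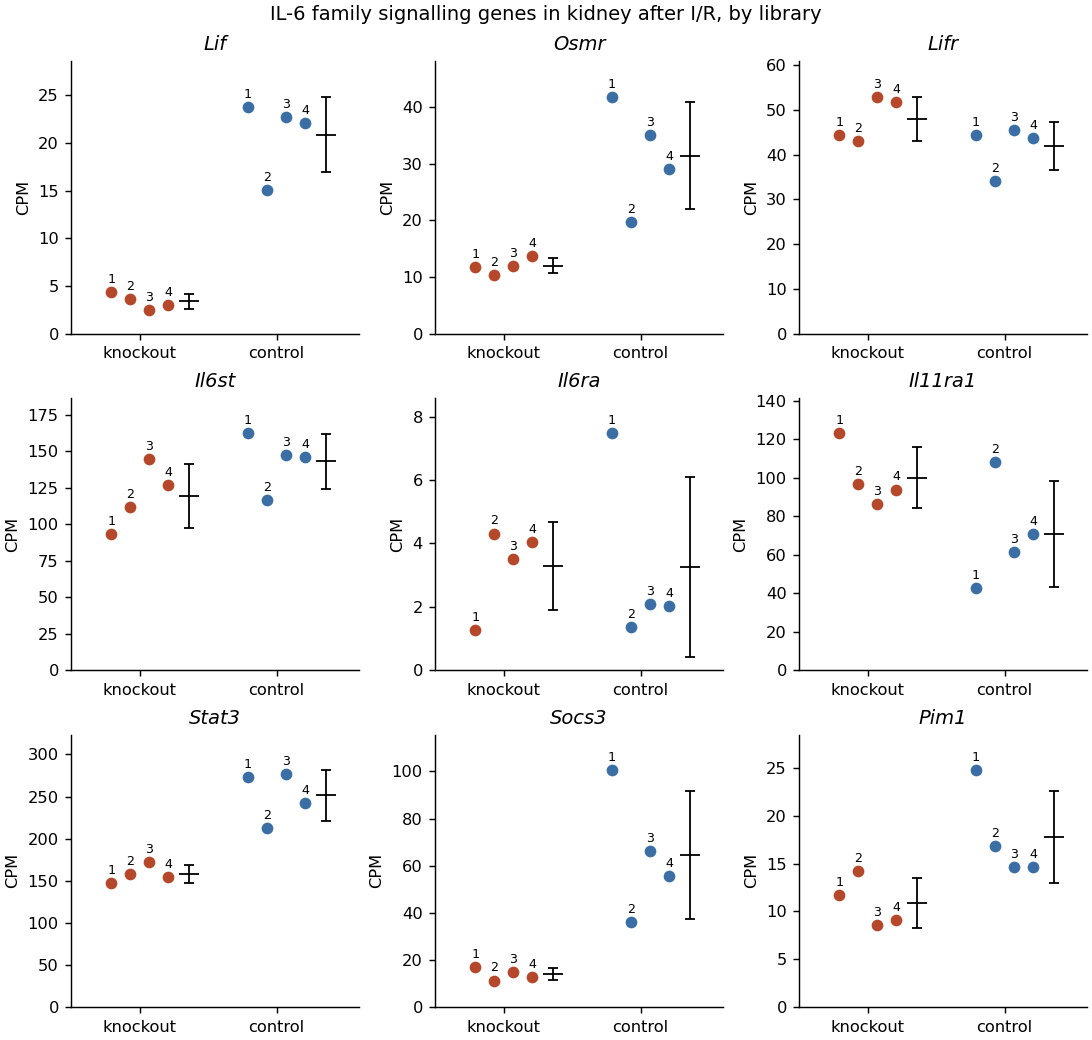
CPM (TMM-scaled) of each of the 9 genes, with 1 point per library numbered by replicate, and the mean and SD beside each group (n = 4). Knockout and control points are apart for Lif, Osmr, Stat3, Socs3 and Pim1 and overlap for Lifr, Il6st, Il6ra and Il11ra1; control 1 stands high for Il6ra at 7.48 CPM.

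Lif, the ligand, showed the largest fold change of the 9. Its level was 4.39, 3.59, 2.51 and 3.02 CPM in knockouts 1 to 4, against 23.8, 15.02, 22.8 and 22.1 CPM in controls 1 to 4. Every knockout library lay below every control library, and the nearest pair, knockout 1 and control 2, stood at 4.39 and 15.02 CPM. Means were 3.38 ± 0.806 CPM in knockouts and 20.9 ± 3.98 CPM in controls (SD, n = 4 each), 6.19-fold lower in knockouts. The log2 fold change was -2.63 (SE 0.22, edgeR adjusted p = 3.34e-04), which placed Lif at rank 13 by p among the 15000 genes. The raw values behind it were 89 to 124 counts in knockouts and 480 to 845 counts in controls.

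Osmr and Lifr, which code for the gp130 partners of oncostatin M and LIF, did not move together. Osmr stood at 11.8, 10.4, 11.96 and 13.7 CPM in knockouts 1 to 4, against 41.9, 19.7, 35.1 and 29.1 CPM in controls 1 to 4. The knockouts were closely grouped, while the controls were spread over a wider range with control 2 lowest. Osmr fell 2.63-fold (log2 fold change -1.40, SE 0.21, edgeR adjusted p = 0.00390). Lifr stood at 44.4, 43.1, 52.9 and 51.7 CPM in knockouts, against 44.5, 34.1, 45.6 and 43.7 CPM in controls. The Lifr groups overlapped: knockouts 1 and 2 lay inside the control range. Its log2 fold change was 0.19 (95% interval -0.09 to 0.48, edgeR adjusted p = 0.345). In the RefSeq gene table Osmr and Lifr are neighbouring protein-coding genes on chromosome 15.

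The difference between these receptor genes also shows as a ratio within each library, which no scaling between libraries can change. The ratio of Osmr to Lifr as length-scaled levels (TPM, counts divided by the deposited gene length and scaled to the same total in every library) was 0.568, 0.516, 0.484 and 0.565 in knockouts 1 to 4, against 2.01, 1.24, 1.65 and 1.42 in controls 1 to 4. Osmr was thus the less abundant of the pair per length in all 4 knockout libraries and the more abundant in all 4 control libraries. On the log2 scale the ratio averaged -0.91 ± 0.11 in knockouts and 0.64 ± 0.30 in controls (SD, n = 4 each). Which gene of the pair is higher rests on the deposited lengths (4835 bases for Osmr, 10333 for Lifr). In raw counts Osmr was below Lifr in controls 1 to 4 too (1490, 630, 1250 and 898 against 1583, 1089, 1623 and 1349). The log2 difference between the groups, -1.55, was the same without length scaling. The ratio is given as a description, since it is built from members of the list.

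The shared chain gp130 and the 2 alpha chains for IL-6 and IL-11 did not pass the threshold. Il6st stood at 93.5, 112.0, 144.8 and 127.1 CPM in knockouts 1 to 4, against 162.4, 117.0, 147.7 and 146.0 CPM in controls 1 to 4. Knockouts 3 and 4 lay inside the control range, and control 2 inside the knockout range. The log2 fold change of Il6st was -0.26 (95% interval -0.61 to 0.08, edgeR adjusted p = 0.293).

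Il6ra was the least steady of the 9 genes. It had 35, 149, 124 and 137 counts in knockouts 1 to 4, against 266, 44, 74 and 63 counts in controls 1 to 4. The same libraries gave 1.26, 4.31, 3.50 and 4.06 CPM in knockouts, against 7.48, 1.38, 2.08 and 2.04 CPM in controls. Control 1 was the highest of all libraries and knockout 1 the lowest, while the other 3 knockouts lay above the other 3 controls. The log2 fold change was 0.02 (95% interval -1.21 to 1.25, edgeR adjusted p = 0.986); without control 1 it was 0.84 (adjusted p = 0.229), and it turned negative when any 1 of knockouts 2, 3 and 4 or controls 2, 3 and 4 was dropped. Control 1 also had the highest summed level of neutrophil markers, at 178 CPM beside 27.7 to 51.3 CPM for controls 2 to 4; the part of those cells in the Il6ra value was not tested.

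Il11ra1 had the highest mean level of the receptor genes per length in both groups, although in control 1 Il6st was higher (63.98 against 47.04 TPM). Il11ra1 stood at 123, 97.1, 86.6 and 94.0 CPM in knockouts 1 to 4, against 42.9, 108, 61.4 and 71.1 CPM in controls 1 to 4. Control 2 was higher than 3 of the 4 knockouts, and the other 3 controls lay below every knockout. In log2 terms the difference was 0.50 (95% interval -0.04 to 1.04, edgeR adjusted p = 0.207); without control 2 it was 0.78 and passed the threshold (adjusted p = 0.0289). Il11ra2, a close paralog, was listed at 0 counts in all 8 libraries, and the assignment of reads shared by the pair is unstated. Exons of Il11ra1 overlap those of Ccl27a on the opposite strand in the reference annotation (156 to 354 counts per library), and the kit used does not preserve strand.

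Stat3 fell by a smaller factor than Lif, Osmr and Socs3, with little spread. It stood at 147.5, 158.2, 172.3 and 154.8 CPM in knockouts 1 to 4, against 273.5, 212.7, 276.9 and 242.0 CPM in controls 1 to 4. The highest knockout was below the lowest control. The means of 158.2 ± 10.4 CPM in knockouts and 251.3 ± 30.2 CPM in controls (SD, n = 4 each) gave a 1.59-fold lower level in knockouts (log2 fold change -0.67, SE 0.12, edgeR adjusted p = 0.00762). Stat5a, whose exons overlap Stat3 on the opposite strand in the reference annotation, had 703 to 1058 counts per library, against 4100 to 9862 counts for Stat3.

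Socs3 stood at 17.02, 11.2, 15.01 and 12.5 CPM in knockouts 1 to 4, against 100.6, 35.98, 66.3 and 55.6 CPM in controls 1 to 4. The controls varied widely, with control 1 highest and control 2 lowest, yet the lowest control was above every knockout. Means were 13.9 ± 2.58 CPM in knockouts and 64.6 ± 27.1 CPM in controls (SD, n = 4 each). Socs3 fell 4.64-fold (log2 fold change -2.21, SE 0.28, edgeR adjusted p = 0.00184).

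Socs3 fell further than Stat3 itself. The ratio of Socs3 to Stat3 in TPM was 0.191, 0.118, 0.145 and 0.134 in knockouts 1 to 4, against 0.610, 0.281, 0.397 and 0.381 in controls 1 to 4. The highest knockout ratio was below the lowest control ratio. The log2 ratio averaged -2.79 ± 0.30 in knockouts and -1.32 ± 0.46 in controls (SD, n = 4 each), given as a description.

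Pim1 stood at 11.7, 14.3, 8.55 and 9.13 CPM in knockouts 1 to 4, against 24.8, 16.8, 14.7 and 14.7 CPM in controls 1 to 4. The groups did not overlap, but knockout 2 came within 0.5 CPM of the lowest control. The log2 fold change was -0.70 (SE 0.23, 95% interval -1.20 to -0.20) and did not pass the threshold in edgeR (adjusted p = 0.0666). Pim1 passed in DESeq2 (adjusted p = 0.0273) and in limma voom with sample weights (adjusted p = 0.0417). Without control 1 its log2 fold change was -0.50 (edgeR adjusted p = 0.139), while leaving out both control 1 and knockout 3 gave -0.40 (adjusted p = 0.277).

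**Figure D2:**
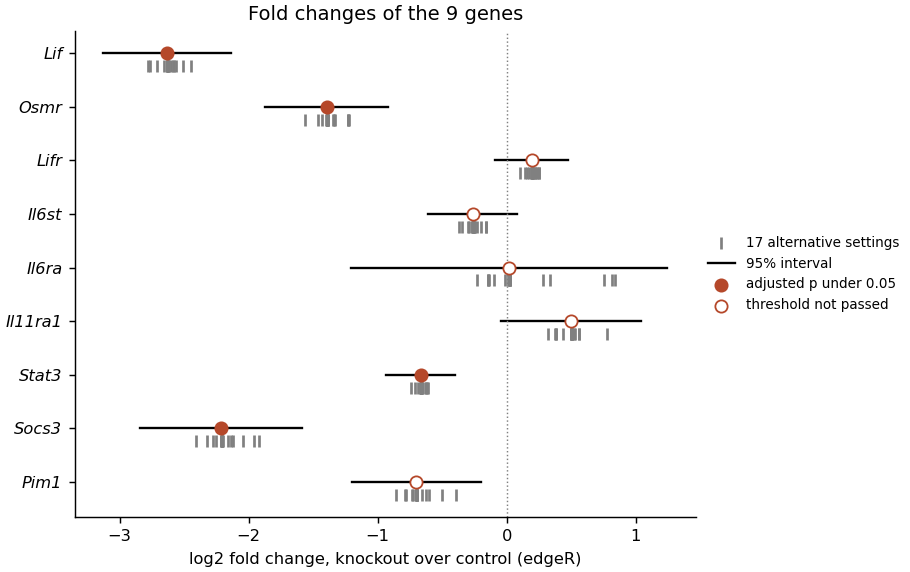
Log2 fold change, knockout over control, of each gene in edgeR, with its 95% interval as a line and its value under each of 17 alternative settings as grey ticks below. Filled points mark an adjusted p under 0.05; the ticks of Lif, Osmr, Stat3 and Socs3 all lie left of 0, while those of Il6ra fall on both sides.

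Compared per length, the genes kept different orders in the 2 groups. In knockouts the mean level was 98.5 ± 6.88 TPM for Il11ra1, 68.4 ± 10.2 TPM for Stat3 and 43.2 ± 11.5 TPM for Il6st. Socs3 (9.89 ± 1.48 TPM), Lifr (9.11 ± 1.78 TPM) and Pim1 (7.75 ± 1.57 TPM) followed, each within 1 SD of the next, then Osmr (4.84 ± 0.932 TPM), Il6ra (1.94 ± 0.896 TPM) and Lif (1.49 ± 0.218 TPM), the last 2 again within 1 SD. In controls the order was Stat3 (106.4 ± 22.8 TPM), Il11ra1 (66.8 ± 20.03 TPM), Il6st (50.3 ± 11.4 TPM), Socs3 (46.5 ± 24.2 TPM), Osmr (12.6 ± 4.97 TPM), Pim1 (12.6 ± 4.71 TPM), Lif (9.25 ± 2.48 TPM), Lifr (7.76 ± 1.59 TPM) and Il6ra (1.93 ± 1.89 TPM; all SD, n = 4). From Il11ra1 to Il6st to Socs3, each lay within 1 SD of the next there, as did each from Osmr to Pim1 to Lif to Lifr. These levels rest on the deposited lengths, and for Il6ra that length (3377 bases) is far shorter than the longest reference transcript (8639 bases). Of the summed TPM of the 5 receptor genes, Osmr made up 3.05 ± 0.349% in knockouts and 9.05 ± 3.43% in controls (SD, n = 4 each), without overlap. Il11ra1 made up 62.8 ± 7.04% in knockouts and 47.9 ± 13.5% in controls, with overlap.

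**Figure D3:**
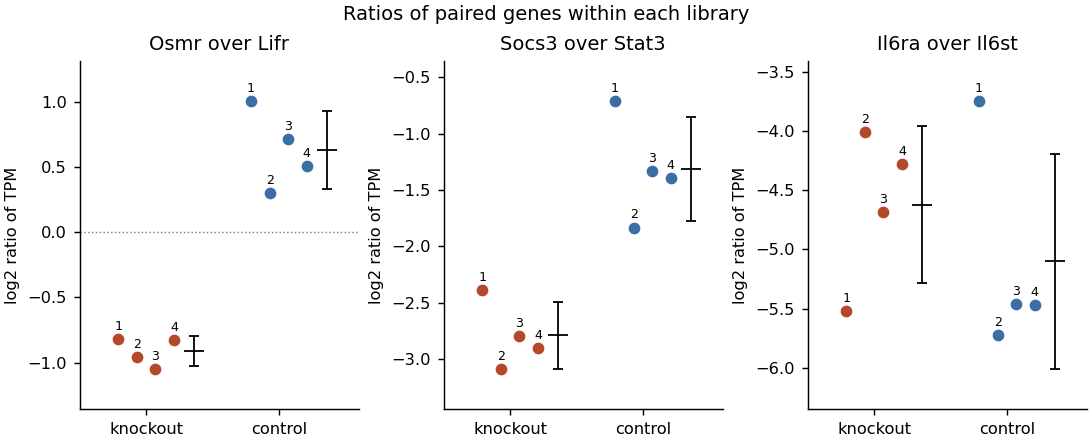
Log2 ratio of TPM within each library for Osmr over Lifr, Socs3 over Stat3 and Il6ra over Il6st, with 1 point per library numbered by replicate and the mean and SD of each group (n = 4). Knockouts lie below controls without overlap in the first 2 panels, and the Il6ra panel overlaps. Osmr over Lifr is below 0 in all knockouts and above 0 in all controls, a side of 0 that rests on the deposited lengths.

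The controls differed among themselves in a shared order. Control 1 was highest of the controls in 6 of the 9 genes and control 2 lowest in 7. Il6ra, Il6st, Osmr, Lif and Socs3 shared the full order of control 1, 3, 4 and 2 from high to low, and Il11ra1 had the reverse. No order was shared by more than 2 genes among the knockouts. The summed level of 8 injured tubule markers also ran higher in controls 1 and 3 (24010 and 26310 CPM) than in controls 2 and 4 (13220 and 15540 CPM). Most of that sum was the single gene Spp1, at 19450, 10480, 21950 and 12420 CPM in controls 1 to 4, so it does not stand for each marker.

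Genes whose log2 CPM over the 8 libraries was most like that of a member were sought among 12463 non-member genes whose log2 CPM averaged 1 or more. For Socs3 these were Ier5, an immediate early response gene, Msn, which codes for the membrane linker moesin, and H3f3b, a histone H3.3 gene (Pearson r = 0.994, 0.993 and 0.992). For Osmr they were Jun, a subunit of the AP-1 factor, Il13ra1, which codes for a receptor chain of IL-13, and Msto1 (r = 0.993, 0.993 and 0.989). For Stat3 they were the kinase gene Csnk1d, Spp1, which encodes osteopontin, and Steap1 (r = 0.993, 0.991 and 0.990). With group means removed r was 0.952 to 0.977 for the genes like Socs3, 0.958 to 0.970 for those like Osmr and 0.921 to 0.958 for those like Stat3. These values describe the same 8 libraries in 2 separated groups and were picked as the highest of many, so no p is given.

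Among the other cytokines of the family, 3 of 5 tested were lower in knockouts and 0 were higher. The number higher was 1 at an unadjusted p under 0.05 and 0 in DESeq2 and limma voom. Without control 2 it was 1 of 6 tested in edgeR. Clcf1, a ligand that acts through the ciliary neurotrophic factor receptor, was at 9.81 ± 1.46 CPM in knockouts and 33.3 ± 6.89 CPM in controls (SD, n = 4 each; 3.395-fold lower, edgeR adjusted p = 8.42e-04). Il11, the ligand of Il11ra1, had 21, 79, 67 and 69 counts in knockouts 1 to 4, against 1215, 150, 329 and 255 counts in controls 1 to 4. Control 1 stood far above the other controls. In edgeR Il11 fell 8.02-fold (adjusted p = 0.0127; log2 fold change -3.003, SE 0.61), and the log2 value was -2.08 without control 1 (adjusted p = 0.00807). Ctf1, which codes for cardiotrophin 1, was at 10.9 ± 1.69 CPM in knockouts and 7.54 ± 1.91 CPM in controls (SD, n = 4 each; edgeR adjusted p = 0.121).

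The cytokines Il6 and Osm were too rare to enter the test. Il6 had 0, 4, 0 and 0 counts in knockouts 1 to 4, against 125, 12, 22 and 9 counts in controls 1 to 4. Each control had more counts of Il6 than any knockout, and with no filter on low counts edgeR gave an adjusted p = 0.0197 (it passed in 2 of the 5 fits with 1 library left out in which it was tested). Osm had 0, 2, 11 and 0 counts in knockouts, against 49, 8, 5 and 34 counts in controls, and the groups overlapped (adjusted p = 0.127 with no filter). A count of 0 allows up to 0.108 CPM in knockout 1, the shallowest library, for counting error only. Il6 and Osm were singled out after their values were seen, as the ligands of Il6ra and Osmr.

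Of the other receptor genes of this type, 1 of 2 tested rose and 0 fell (0 fell at an unadjusted p under 0.05, in DESeq2 and in limma voom). Cntfr, which codes for the alpha chain of the ciliary neurotrophic factor receptor, stood at 7.56, 8.46, 9.42 and 12.2 CPM in knockouts 1 to 4, against 1.63, 4.38, 3.68 and 5.15 CPM in controls 1 to 4. Every knockout lay above every control, 2.54-fold higher (edgeR adjusted p = 0.0251, log2 fold change 1.34, SE 0.32). The call was lost without control 3, knockout 2, knockout 3 or knockout 4 (adjusted p = 0.0646, 0.0533, 0.0575 and 0.0802). Il27ra had a log2 fold change of 0.06.

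Among Janus kinases and other STAT factors, 1 of 9 tested fell, 1 rose and 7 did not pass, with a median log2 fold change of -0.08. Jak3, a kinase best known from lymphocytes, stood at 37.6 ± 4.98 CPM in knockouts and 53.7 ± 3.35 CPM in controls (SD, n = 4 each; 1.43-fold lower, edgeR adjusted p = 0.0218). Stat5b rose 1.28-fold (edgeR adjusted p = 0.0381); reads shared with its close paralog Stat5a leave the value uncertain. The call of Jak3 was lost without control 3 or knockout 3 (adjusted p = 0.0630 and 0.0646), and that of Stat5b when any single library other than control 1 was dropped (adjusted p up to 0.101) or when no filter on low counts was used (0.0624). Stat6 (log2 fold change -0.26) did not pass.

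Of 15 other inhibitors and phosphatases of the pathway, 0 rose and 0 fell in edgeR (0 higher and 2 lower at an unadjusted p under 0.05; 0 higher and 1 lower in DESeq2, 0 and 0 in limma voom). Their median log2 fold change was 0.01, beside -2.21 for Socs3. The members with the smallest p were Ptpn2, a phosphatase gene, at 17.6 ± 1.82 CPM in knockouts and 23.2 ± 3.13 CPM in controls (SD, n = 4 each; edgeR adjusted p = 0.0868), and Socs6, with a log2 fold change of -0.36 (adjusted p = 0.155). Pias2 and Pias4, of the family of protein inhibitors of activated STATs, had log2 fold changes of 0.20 and -0.19. Pim2 and Pim3, the other PIM kinase genes, had log2 fold changes of 0.07 and 0.18, and 0 of 2 passed in edgeR, at an unadjusted p under 0.05, in DESeq2 or in limma voom.

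The list of genes known to be regulated by STAT3 in various cells had 13 of 23 lower, 0 higher and 10 not passing in edgeR (17 lower and 2 higher at an unadjusted p under 0.05; 16 and 1 in DESeq2, 15 and 2 in limma voom). Its median log2 fold change was -1.25, against -0.01 over all genes tested. Bcl3, an IkB-family gene, was at 28.7 ± 4.74 CPM in knockouts and 96.2 ± 19.8 CPM in controls (SD, n = 4 each; 3.35-fold lower, edgeR adjusted p = 6.21e-04). Timp1, an inhibitor of matrix proteases, fell 3.73-fold, Cebpd, a transcription factor of the acute phase response, 3.39-fold and Junb, an AP-1 subunit, 2.75-fold. The other genes that fell were Myc, Bcl2l1, Mcl1, Icam1, Lcn2, Lrg1 and the fibrinogen genes Fga, Fgb and Fgg, named after their values were seen. Of the 23 genes, 20 had a negative log2 fold change. Vegfa, Ccnd1 and Lbp had positive values of 0.49, 0.47 and 0.35 (edgeR adjusted p = 0.0583, 0.131 and 0.479). Vegfa and Ccnd1 were the 2 higher at an unadjusted p under 0.05. The fibrinogen genes fell 4.71- to 6.50-fold. The calls of the survival genes Bcl2l1 (1.44-fold lower) and Mcl1 (1.31-fold lower) were fragile: that of Bcl2l1 was lost without knockout 2, 3 or 4 (adjusted p up to 0.0697), and that of Mcl1 without any single library other than knockout 1 (adjusted p up to 0.119). Many of these genes answer to other factors as well, and Lcn2 is itself an injury marker. Lcn2 and Junb were already known to be lower in these libraries when the list was drawn up.

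**Figure D4:**
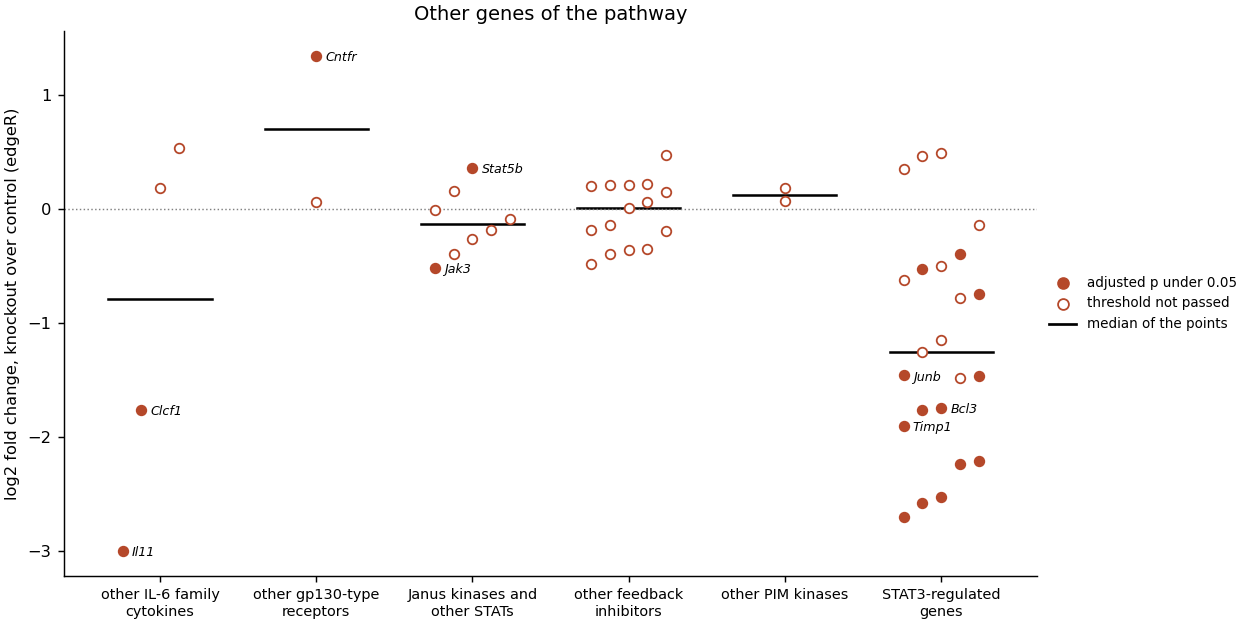
Log2 fold change, knockout over control, of all tested genes in 6 lists of the pathway except 2 that are not reported, with 1 point per gene, filled at an adjusted p under 0.05, and a bar at the median of the points, which can differ from the list median in the text. All filled points lie below 0 among cytokines and among STAT3-regulated genes (13 of 23 lower), while none of 15 other feedback inhibitors is filled.

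Markers of other cell states moved between the same groups. Of the injured tubule markers, 7 of 8 fell, and their summed level was 5078 to 5956 CPM in knockouts and 13220 to 26310 CPM in controls. Spp1 made up most of that sum in every library. Of the immediate early genes, which can respond to tissue handling, 6 of 8 fell (181 to 230 CPM in knockouts, 313 to 463 CPM in controls). Of the neutrophil markers, 6 of 7 tested fell (6.09 to 16.7 CPM in knockouts, 27.7 to 178 CPM in controls). The number that fell was 4, 1, 3 and 2 without knockouts 1, 2, 3 and 4, and 4 in DESeq2. Ly6g, too rare to enter the test, had 18, 1, 0 and 0 counts in controls 1 to 4, against 2, 2, 2 and 6 counts in knockouts 1 to 4. Of the kidney segment markers, 5 of 9 rose (10920 to 12570 CPM in knockouts, 3660 to 7005 CPM in controls), a count of 2 if knockout 2 or 4 was left out and of 3 if knockout 3 or control 3 was. Umod and Slc34a1 made up most of that sum, and Slc34a1 was not among the 5 (edgeR adjusted p = 0.195).

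Macrophage and monocyte markers had 1 of 10 lower, Ccr2, and 0 higher in edgeR (3 lower and 1 higher at an unadjusted p under 0.05; 3 and 1 in DESeq2, 0 and 1 in limma voom). Ccr2 had 30 to 85 counts in knockouts and 113 to 214 counts in controls 2 to 4, with 1028 counts in control 1. Without any 1 of the 4 knockouts, or without control 3, the list had 0 lower; it had 2 lower without control 2 or control 4, and 2 higher without control 1. Its summed level was 205 to 353 CPM in knockouts and 182 to 318 CPM in controls. Endothelial markers had 2 of 6 higher (305 to 376 CPM in knockouts, 147 to 303 CPM in controls), a count of 0 if knockout 3 or 4 was left out and of 1 if knockout 1 or 2 or control 1 or 3 was. Lymphocyte and fibroblast markers had 0 of 5 and 0 of 6 called in edgeR (1 and 3 at an unadjusted p under 0.05; 1 and 1 in DESeq2, 0 and 1 in limma voom; 1 and 2 without control 4, 0 and 1 without control 2), with summed levels of 5.81 to 10.2 and 436 to 672 CPM in knockouts and of 2.22 to 10.1 and 182 to 518 CPM in controls. The part of any of these cells or of handling in the members' values was not tested. Leaving out control 1, where neutrophil markers were highest, kept 6 of 7 neutrophil markers lower (median log2 fold change -2.03). It also kept 7 of 8 injured tubule markers lower, so that fit does not test the part of either. In log2 terms Lif then stood at -2.57, Osmr at -1.23, Stat3 at -0.63 and Socs3 at -1.92. Each still passed the threshold (edgeR adjusted p = 3.42e-04, 0.00450, 0.0116 and 9.47e-04).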

How the data were processed

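The authors deposited 1 table of raw counts per gene with a column per library and a gene length column; Salmon 1.10.2, HISAT2 2.2.1, Trim Galore 0.6.2 and FastQC are listed, with build mm39, per the submitters' processing notes, and which step made the counts is not given in the sources used here. Gene length, in bases, is another deposited column, of unstated origin. Even values made up 68.7% to 70.9% of counts from 1 to 20, against 49.5% to 50.4% above 100, so a count may stand for less than 1 fragment, and depth limits cover counting error only. Genes were taken by symbol, since 13 of 18423 known identifiers matched the symbol in their line.

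Counts were fitted in edgeR 4.0.16 (R 4.3.3): filterByExpr with a minimum count of 10, TMM, glmQLFit and glmQLFTest, knockout against control without covariates, Benjamini-Hochberg adjustment over 15000 genes, threshold 0.05. The function was tested on simulated data. CPM used TMM factors; TPM used the deposited lengths; log2 CPM used a prior count of 2. Alternatives included DESeq2 1.42.0, limma 3.58.1 voom with sample weights, other scalings and filters, halved counts, a replicate block and leaving out libraries. Named genes were the 9 members, Foxo1, Lyz2, up to 4 per pathway list by smallest p, up to 2 per marker list and 3 most alike for Osmr, Stat3 and Socs3; others were named to spell out a count. The members and lists were chosen with earlier results of these data known. Values of some single genes in the pathway lists are not reported here; the counts over the lists include them.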

Additional observations from a re-analysis of the deposited data

Results flagged for a closer look

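A sample stood far from the other 3 of its group in 2 of the 18 sets of 4 values examined (9 genes in 2 groups); chance flags about 1 in 20 such sets. Il6ra in control 1 was at 7.48 CPM, above 1.38 to 2.08 CPM in the other controls. Lifr in control 2 was at 34.1 CPM, below 43.7 to 45.6 CPM in the other controls.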

How the results depend on the processing

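Lif, Osmr, Stat3 and Socs3 kept their direction and their call under all 17 alternatives, with log2 fold changes of -2.78 to -2.44, -1.57 to -1.23, -0.74 to -0.61 and -2.41 to -1.92. Pim1 gained a call in DESeq2 (-0.69) and in voom with sample weights (-0.65), and ran from -0.85 to -0.50 with 1 library left out. Il11ra1 ran from 0.32 to 0.78 with 1 library left out and gained a call without control 2, which made the count of higher members 0 to 1. Il6ra ran from -0.23 to 0.84 with 1 library left out: it was -0.13, -0.01 and -0.10 without knockouts 2, 3 and 4 and -0.23, -0.15 and -0.15 without controls 2, 3 and 4. Of the 56 pathway genes tested, the 2 called higher became 1 with no low-count filter, 4 in voom, 1 with the replicate block and 0 to 3 with 1 library left out. With the replicate block the 942 lower and 967 higher calls over all genes became 418 and 447, against 1504 and 1605 in DESeq2; voom had 1447 lower. Over the fits that left out 1 library they ran from 450 to 983 lower and from 457 to 1001 higher. Without control 1 and knockout 3 together they were 496 and 549. That fit called 4 of 9 members, 11 of 23 STAT3-regulated genes and 4 of 7 neutrophil markers lower. It also called 1 STAT3-regulated gene and 3 of 9 kidney segment markers higher. It called 0 endothelial markers and 0 Janus kinases or other STATs. The cause was not tested. Whether the titles' replicate numbers pair the libraries is not given in the sources used here. Deviations of same-numbered libraries correlated at -0.20, 0.04, 0.15 and -0.16, which cannot settle it with so few libraries. The block changed no member's call. It left 4 neutrophil, 0 macrophage and 0 endothelial marker calls, and ended the calls of Il11, Jak3, Stat5b, Bcl2l1, Mcl1 and Icam1 (adjusted p = 0.0771, 0.0524, 0.116, 0.0678, 0.102 and 0.0606). Few counts limit the precision of Il6ra, Il6 and Osm.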
